A study of Mus musculus with 12 samples.

Results

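Interferon-stimulated genes are the genes that cells switch on when interferons signal through their receptors. The 38 described here were chosen by gene symbol, with earlier results of these data known, and all 38 were found among the 25239 genes of each deposited count table (Ddx58, which encodes RIG-I, is listed under that older symbol). By role they comprise 4 transcription factors of the response, 4 sensors of nucleic acids, 18 antiviral effectors, 6 modulators, 3 guanylate-binding proteins, and 3 genes of antigen presentation or chemotaxis.

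RNA was measured in 12 libraries from mouse heart cardiomyocytes, in 4 groups of 3. Chaf1a cko and Chaf1a cko 3M cells carried floxed Chaf1a alleles together with Myh6-Cre, in which a promoter active in cardiomyocytes drives the recombinase. Ctrl and Ctrl 3M cells carried the floxed alleles without Cre and have the genotype label WT, so effects of Cre and of the Chaf1a deletion cannot be told apart. The Chaf1a protein is the large subunit of CAF-1, a chaperone that places histones on newly copied DNA. One table held Chaf1a cko and Ctrl (the first set), and another held Chaf1a cko 3M and Ctrl 3M (the 3M set). The title places the loss of Chaf1a around birth. The labels give no sex, no age for the first set and no meaning for 3M, and name no interferon, virus or other agent. The cardiomyocytes were cultured before extraction, per the labels' protocols. Whether libraries of 1 group stem from different animals is not said, so p-values rest on a spread between libraries that could be technical.

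Type I interferons bind a receptor whose kinases Jak1 and Tyk2 phosphorylate STAT factors, Stat2 among them, and a complex with Irf9 then binds the interferon-stimulated response element of target promoters. Type II interferon acts mainly through the gamma-activated sequence of its target promoters. In the heart, cardiomyocytes, macrophages and endothelium all respond to interferon, and cytosolic DNA or RNA sensed by cGAS, RIG-I or MDA5 can start the response without infection.

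Promoter sequence was searched for the core of the response element. RefSeq promoter windows of GRCm38.p6, from 250 bases before to 50 after a start site, were matched for 29 of the 38 genes. The core GAAANNGAA, searched on both strands, was found in 19 of these 29 (65.5%), against 9.76% of all 27025 genes with a window. Counted per window the shares were 57.6% of 33 windows and 8.56% of 32851. The gamma-activated sequence TTCNNNGAA, which is its own reverse complement and can overlap the core, was found in 8 of the 29 (27.6%), against 9.55% of all genes. The 6 stretches below belong to the genes with the smallest p-values in the first set whose windows hold a core, and capitals mark the core, which reads TTCNNTTTC where it lies on the other strand. All are RefSeq sequence of GRCm38.p6, written 5′ to 3′ on the strand of the gene.
Eif2ak2 (chr17:78882543-78882579, minus strand): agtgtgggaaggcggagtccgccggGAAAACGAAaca
Gbp3 (chr3:142559975-142560039, plus strand): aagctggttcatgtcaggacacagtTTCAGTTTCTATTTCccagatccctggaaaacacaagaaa
Stat2 (chr10:128270252-128270310, plus strand): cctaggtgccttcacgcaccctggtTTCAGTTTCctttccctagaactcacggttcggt
Gbp7 (chr3:142530259-142530317, plus strand): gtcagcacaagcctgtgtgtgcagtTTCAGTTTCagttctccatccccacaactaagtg
Gbp2 (chr3:142620580-142620638, plus strand): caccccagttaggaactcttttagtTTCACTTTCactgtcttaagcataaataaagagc
Rsad2 (chr12:26456538-26456596, minus strand): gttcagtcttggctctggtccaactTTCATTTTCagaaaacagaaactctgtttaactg
The Gbp3 stretch holds 2 overlapping cores. The core lies 43 and 49 bases upstream of the start site in Gbp7 and Gbp2, and 110 and 212 bases upstream in Rsad2 and Stat2. Eif2ak2 holds 2 overlapping cores just after the start, of which the stretch shows the first whole and ends within the other. Neither window of Ifit2 holds these letters, which says nothing of a factor that binds there.

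The targeted gene itself (chr17:56040416-56068026) did not separate the groups. Chaf1a had 29.0, 24.5 and 21.95 CPM (counts scaled to library size by TMM factors) in Chaf1a cko and 22.7, 32.3 and 18.8 CPM in Ctrl (log2 fold change 0.03, standard error (SE) 0.18, adjusted p = 0.981). Its 3M values were 8.34, 5.58 and 5.54 CPM in Chaf1a cko 3M and 1.88, 4.74 and 9.75 CPM in Ctrl 3M (log2 fold change 0.25, SE 0.61, adjusted p = 0.952). These counts cover the whole gene and the deleted exons are not given here, so they do not check the labels. Directions given below follow the library labels. Total counts per library were 15068468 to 20896673 in the first set and 10569325 to 16445963 in the 3M set. Reads reached nearly all genes of the first table: 94.7% to 97.5% of 1545 chemoreceptor genes had counts in each first-set library, against 1.23% to 1.68% in each 3M library. Their 95th percentile in the first set was 5.38 CPM. Genes with a mean under 5 CPM, a round level near it, are taken as background there, and no background was subtracted. Oas3 and Cxcl10, with means of 5.30 and 5.28 CPM, lie between these levels. The cut takes no account of gene length. Summed CPM of 4 Y-linked genes was 115 to 133.99 in Chaf1a cko and 50.05 to 61.1 in Ctrl, with Xist present in all 6 of these libraries (270 to 323 CPM in Chaf1a cko and 291 to 620 CPM in Ctrl), so a sex mixture and the genotype cannot be told apart in the first set. In the 3M set the Y-linked sum was 355 to 394 CPM in Chaf1a cko 3M and 393 to 646 CPM in Ctrl 3M. Xist was at 0 to 3.98 CPM in Chaf1a cko 3M and 0 to 0.296 CPM in Ctrl 3M. Sex may thus differ between the sets, and cannot be told apart from other differences between them.

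In the first set none of the 38 genes passed the threshold. Of the 33 with a mean of at least 5 CPM, 25 were fitted higher in Chaf1a cko and 8 lower. Calls rest on the quasi-likelihood test of edgeR, with p-values adjusted by Benjamini-Hochberg over all genes tested in the set and a threshold of 0.05, and 1.18% of the 22965 genes tested passed it (1.89% of those of at least 5 CPM). The smallest adjusted p of a member was 0.0796. At an unadjusted p under 0.05 there were 8 members, all of them higher in Chaf1a cko: Eif2ak2, Ifit2, Gbp3, Stat2, Gbp7, Gbp2, Rsad2 and Ddx58. None was lower. Over the 13799 genes of at least 5 CPM, 8.34% were higher and 5.38% lower at that unadjusted p (5.63% and 4.5% of all genes tested). The groups did not overlap, with all 3 Chaf1a cko libraries above all 3 Ctrl libraries, for those 8 of the 33 genes, and for none of the 33 the other way. Among all genes of at least 5 CPM, 11.1% did not overlap with Chaf1a cko higher and 8.04% with Chaf1a cko lower (8.33% and 7.85% of all genes tested). The Wald test of DESeq2 on the same counts called 2 members, Eif2ak2 and Ifit2, both higher in Chaf1a cko, against 4.21% of the 11386 genes to which it gave an adjusted p, and it gave none to 10 members.

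The median log2 fold change of the 38 genes was 0.10, against -0.01 over all genes tested. It was 0.17 and 0.15 when Chaf1a cko replicate 2 or 3 was left out. Over the 12 alternative settings it ran from 0.08, with a filter of 5 CPM in 3 libraries, to 0.20, without Ctrl replicate 3. The 33 members of at least 5 CPM had a median of 0.09, against 0.02 over all genes at that level. The 95% interval of the fold change, which takes no account of background reads, lay within 2-fold in either direction for 31 of these 33. The other 5, Oas2, Zbp1, Dhx58, Isg15 and Oas1a, were background in this table and are given no direction. Cxcl10 was the member nearest above the level, with a mean of 5.28 CPM, and Oas2 the nearest below it, with 4.26 CPM.

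**Figure D1:**
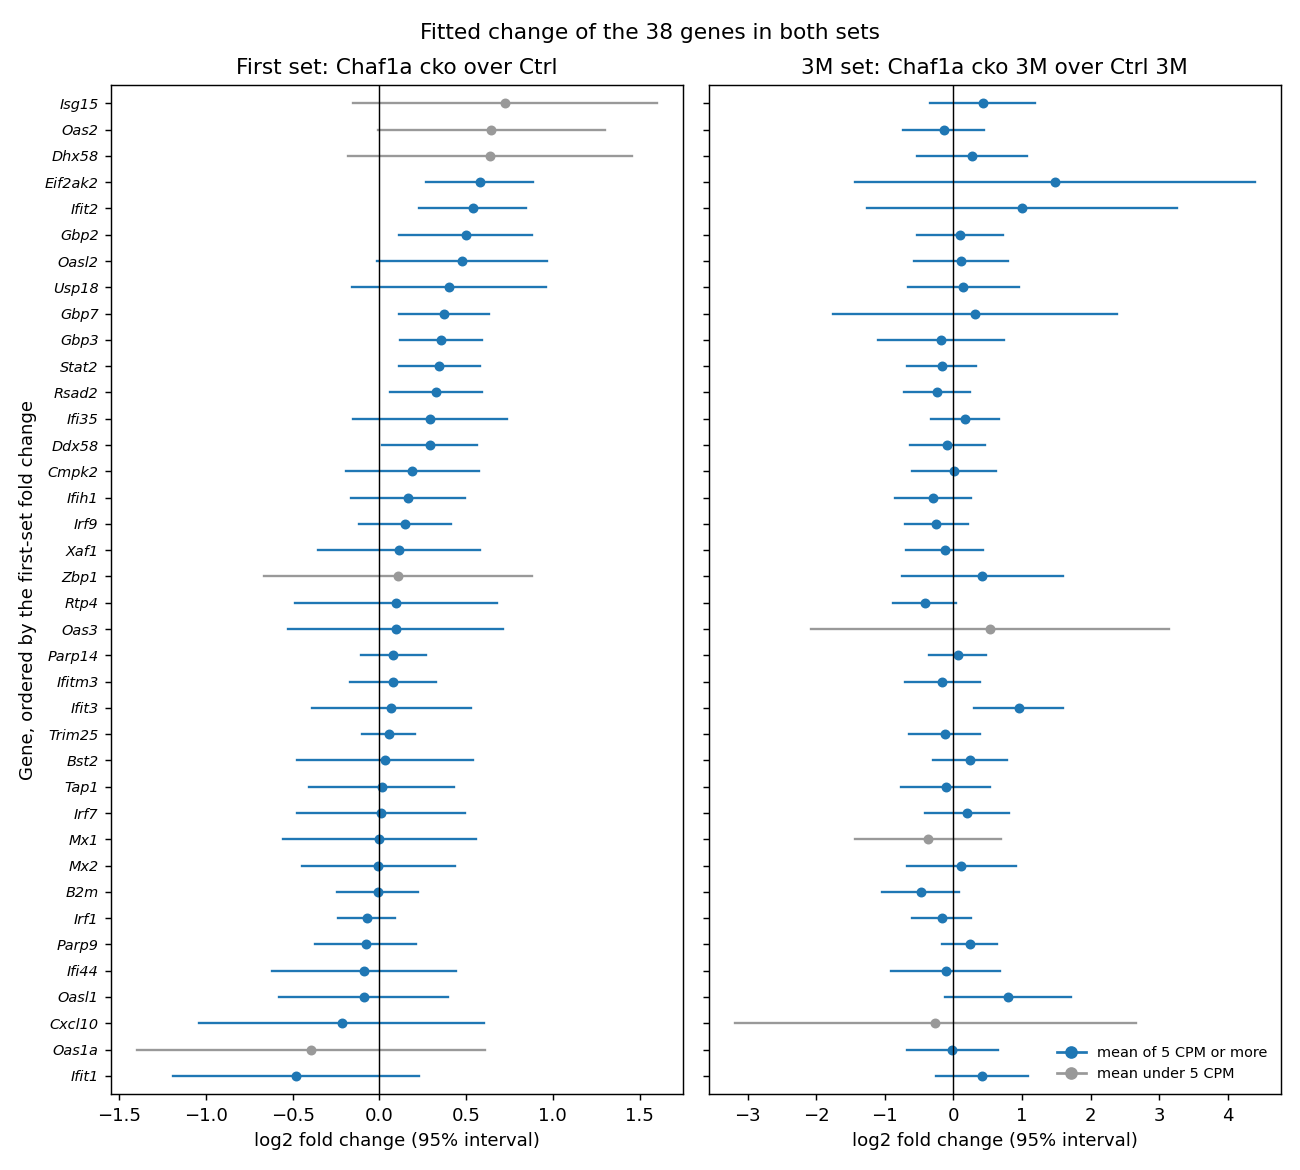
Fitted log2 fold change of each of the 38 genes (points) with its 95% interval (lines), for Chaf1a cko over Ctrl on the left and Chaf1a cko 3M over Ctrl 3M on the right, with genes from top to bottom in order of the first-set value and a wider axis on the right. The first-set intervals of Eif2ak2, Ifit2, Gbp2, Gbp7, Gbp3, Stat2, Rsad2 and Ddx58 lie above 0, while in the 3M set only that of Ifit3 does, and gray marks a mean under 5 CPM.

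Among the 4 transcription factors of the response, Stat2 differed most in the first set. Stat2, a subunit of the complex that binds the response element, had 43.1, 42.4 and 44.3 CPM in Chaf1a cko against 34.3, 33.4 and 34.5 CPM in Ctrl. The libraries of each group lay close together and the groups were apart (log2 fold change 0.35, SE 0.11, 95% interval 0.11 to 0.58, adjusted p = 0.214). Irf9, the DNA-binding subunit of that complex, averaged 39.4 ± 5.37 CPM in Chaf1a cko and 35.6 ± 2.36 CPM in Ctrl (SD, n = 3 each), and the groups overlapped. Irf1, a factor induced by type II interferon, had 89.7, 99.3 and 87.9 CPM in Chaf1a cko and 98.8, 93.5 and 98.9 CPM in Ctrl, which also overlapped (log2 fold change -0.07, SE 0.08). Irf7, which amplifies production of type I interferon, averaged 9.31 ± 0.512 CPM in Chaf1a cko and 9.22 ± 2.02 CPM in Ctrl (SD, n = 3 each).

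Of the sensors, Ddx58 and Ifih1 were above the background level. Ddx58 (RIG-I, a sensor of viral RNA ends) had 36.4, 40.3 and 36.7 CPM in Chaf1a cko against 26.8, 30.6 and 35.2 CPM in Ctrl. The highest Ctrl library lay just under the lowest Chaf1a cko library (log2 fold change 0.29, SE 0.13, adjusted p = 0.463). Ifih1 (MDA5, a sensor of long double-stranded RNA) averaged 20.8 ± 1.42 CPM in Chaf1a cko and 18.6 ± 0.953 CPM in Ctrl, with overlap (SD, n = 3 each). Dhx58 (LGP2, which regulates both) and Zbp1, a sensor of Z-form nucleic acid, were background, with means of 3.22 and 3.53 CPM over the 6 libraries.

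The 18 antiviral effectors held the genes with the smallest p-values. Eif2ak2 encodes PKR, the kinase that halts translation when it binds double-stranded RNA. It had 58.4, 56.1 and 56.4 CPM in Chaf1a cko against 27.4, 44.3 and 42.4 CPM in Ctrl. The Chaf1a cko libraries were within a narrow range, and Ctrl replicate 1 was far below the other Ctrl libraries (log2 fold change 0.58, SE 0.15, 95% interval 0.27 to 0.89, adjusted p = 0.0796). Over the 12 alternative settings its adjusted p ran from 0.00601, in the Wald test of DESeq2, to 0.284, and without Ctrl replicate 1 the log2 fold change was 0.39. Exons of Eif2ak2 share 221 bases with genes on the opposite strand, from which its reads cannot be told apart without the strand setting.

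Ifit2, an RNA-binding effector that restrains viral translation, had 37.0, 33.5 and 28.2 CPM in Chaf1a cko against 21.3, 25.2 and 21.4 CPM in Ctrl. All 3 Chaf1a cko libraries were higher (log2 fold change 0.54, SE 0.15, adjusted p = 0.106), and the adjusted p ran from 0.0177, in the Wald test of DESeq2, to 0.402 over the alternatives. Its neighbours on chromosome 19, Ifit3 and Ifit1, overlapped between the groups: Ifit3 averaged 12.3 ± 3.06 CPM in Chaf1a cko and 11.7 ± 0.886 CPM in Ctrl, and Ifit1 6.08 ± 2.60 CPM in Chaf1a cko and 8.49 ± 2.77 CPM in Ctrl (SD, n = 3 each). Whether Ifit2 differed from them was not tested. Rsad2 (viperin, which makes a chain-terminating nucleotide) had 37.7, 49.2 and 42.2 CPM in Chaf1a cko against 35.2, 36.1 and 31.6 CPM in Ctrl. The groups were apart by a small gap (log2 fold change 0.33, SE 0.13, adjusted p = 0.347). Cmpk2, a nucleotide kinase gene beside Rsad2 on chromosome 12, averaged 16.1 ± 2.14 CPM in Chaf1a cko and 14.1 ± 0.446 CPM in Ctrl, with overlap (SD, n = 3 each).

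The remaining effectors of at least 5 CPM overlapped between the first-set groups. They were Oas3, Oasl1 and Oasl2 of the oligoadenylate synthetase family, whose enzymes activate RNase L, the GTPases Mx1 and Mx2 (transcribed pseudogenes in the RefSeq annotation of this assembly), Bst2 (tetherin, which holds budding virus at the cell surface), Ifitm3 (which blocks viral entry), Rtp4 and Ifi44. Their log2 fold changes ran from -0.09 for Oasl1 to 0.48 for Oasl2, and Oasl2 had 10.1, 14.6 and 16.2 CPM in Chaf1a cko and 8.16, 12.4 and 8.79 CPM in Ctrl (unadjusted p = 0.0562). Summed over the 15 effectors of at least 5 CPM, Chaf1a cko libraries had 281, 283 and 262 CPM and Ctrl libraries 223, 242 and 228 CPM, and 11 of the 15 had a higher mean in Chaf1a cko. Eif2ak2, Ifit2 and Rsad2 made up 37.9 of the 44.0 CPM between the group means. Without these 3 the sums were 148, 144 and 135 CPM in Chaf1a cko and 139, 136.5 and 132 CPM in Ctrl, which overlapped.

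The 3 guanylate-binding proteins among the members, GTPases that attack the membranes of intracellular pathogens, were higher in every Chaf1a cko library than in any Ctrl library. They lie in one cluster on chromosome 3. Gbp3 had 64.2, 74.8 and 61.9 CPM in Chaf1a cko against 60.5, 51.5 and 45.4 CPM in Ctrl (log2 fold change 0.35, SE 0.11, adjusted p = 0.206). Gbp7 had 43.7, 49.0 and 47.8 CPM in Chaf1a cko against 36.9, 40.9 and 30.8 CPM in Ctrl (log2 fold change 0.37, SE 0.12, adjusted p = 0.232). Gbp2 had 22.7, 17.5 and 21.7 CPM in Chaf1a cko against 11.8, 15.9 and 15.9 CPM in Ctrl (log2 fold change 0.50, SE 0.18, adjusted p = 0.311). None of the 3 passed the threshold. The family is made of similar copies, so reads could be split between them, and exons of Gbp7 also share 637 bases with Gm43802 on the same strand. Gbp4 of the same family, named here after its values were seen, went the other way in its means, with 17.7, 18.1 and 23.9 CPM in Chaf1a cko and 23.7, 28.6 and 29.9 CPM in Ctrl (log2 fold change -0.46, adjusted p = 0.284). Its groups overlapped by a narrow margin. Gbp5, Gbp6 and Gbp9 also overlapped, with log2 fold changes of 0.07, -0.05 and -0.06, and Gbp8 was background.

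The 6 modulators overlapped between the groups without exception in the first set. Trim25, an E3 ligase that acts with RIG-I, was the member with the highest CPM in this table, at 130.4, 146 and 128 CPM in Chaf1a cko and 120.3 to 138 CPM in the Ctrl libraries (log2 fold change 0.05, SE 0.07). Parp14, an ADP-ribosyltransferase, had 80.9, 95.9 and 80.7 CPM in Chaf1a cko and 87.0, 76.6 and 80.0 CPM in Ctrl (log2 fold change 0.08, SE 0.09). Their small standard errors leave intervals of -0.10 to 0.21 and -0.11 to 0.27. Usp18, which removes Isg15 from proteins and dampens the receptor, averaged 8.01 ± 1.91 CPM in Chaf1a cko and 6.08 ± 1.14 CPM in Ctrl (SD, n = 3 each), and the log2 fold changes of Ifi35, Xaf1 and Parp9 were 0.29, 0.11 and -0.08.

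B2m, the light chain of class I molecules, had 57.3, 70.2 and 52.0 CPM in Chaf1a cko and 56.3, 60.2 and 63.9 CPM in Ctrl. The groups lay on top of each other (log2 fold change -0.01, SE 0.11, 95% interval -0.24 to 0.22). Tap1, a subunit of the transporter that loads peptides on class I molecules, averaged 15.6 ± 3.81 CPM in Chaf1a cko and 15.5 ± 1.48 CPM in Ctrl (SD, n = 3 each). Cxcl10, a chemokine that draws T cells, averaged 4.91 ± 0.788 CPM in Chaf1a cko and 5.66 ± 3.39 CPM in Ctrl (SD, n = 3 each), with a range in Ctrl of 2.21 to 8.98 CPM.

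**Figure D2:**
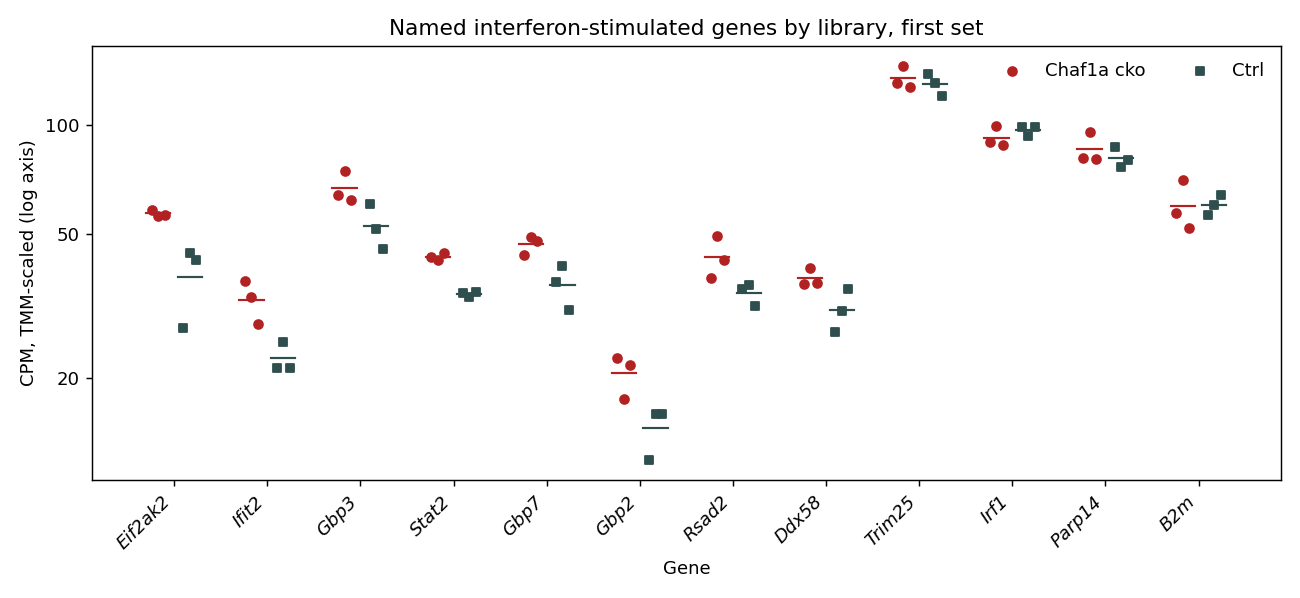
CPM on a log axis in each first-set library for the 12 named genes, with Chaf1a cko (red circles) left of Ctrl (dark squares) and a line at each group mean. The first 8 genes, from Eif2ak2 to Ddx58, show all 3 Chaf1a cko libraries above all 3 Ctrl libraries, while Trim25, Irf1, Parp14 and B2m overlap.

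Per kilobase of exon, which allows levels of different genes to be compared, B2m and Ifitm3 led in both tables and Oas3 was lowest in both. B2m averaged 69.8 CPM per kb over the first-set libraries and 2151 CPM per kb over the 3M libraries. Ifitm3 averaged 54.0 and 641 CPM per kb, and Oas3 0.750 and 0.216 CPM per kb, in the first and the 3M set. The first-set mean of Oas3, 5.30 CPM, was close to the background level. No background was subtracted, so the low end of the first-set order may hold background reads. In the first set the libraries of B2m (60.5 to 81.7 CPM per kb) and Ifitm3 (49.98 to 59.6 CPM per kb) just failed to overlap, and Irf1 and Trim25, next in order at 23.8 and 22.98 CPM per kb, did overlap. Bst2 came next in the 3M set with 172 CPM per kb, apart from Ifitm3 above it (503 to 866 CPM per kb) and from Gbp3 below it (30.9 to 90.6 CPM per kb). The tables differ in background and were deposited separately, so no change between them is read from these levels.

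In the 3M set, 20 of the 38 genes were fitted higher in Chaf1a cko 3M and 18 lower. None passed the threshold, with a smallest adjusted p of 0.607, and over all 13925 genes tested 0.0144% passed. The Wald test of DESeq2 also called none of the members (smallest adjusted p = 0.208), against 0.519% of all genes. At an unadjusted p under 0.05 there was 1 member higher, Ifit3, and none lower, against 3.2% of all genes higher and 3.73% lower. The groups did not overlap for Ifit3 and Parp9, with Chaf1a cko 3M higher, and for Rtp4, with Chaf1a cko 3M lower. Of all genes tested, 7.21% did not overlap with Chaf1a cko 3M higher and 6.89% with it lower, so the members' counts are near the background. The median log2 fold change of the 38 was 0.04, against -0.02 over all genes. The 95% interval lay within 2-fold for 24 of the 38, and reached past 2-fold for the other 14.

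Ifit3, a member of the same antiviral family as Ifit2, had 90.8, 134.4 and 80.0 CPM in Chaf1a cko 3M against 36.0, 64.1 and 57.7 CPM in Ctrl 3M. Every Chaf1a cko 3M library was higher (log2 fold change 0.95, SE 0.28, 95% interval 0.31 to 1.60, unadjusted p = 0.00893, adjusted p = 0.607). Ifit3b, its near-identical copy with which it may share reads, had 23.1, 25.7 and 28.6 CPM in Chaf1a cko 3M against 13.8, 17.9 and 20.1 CPM in Ctrl 3M (log2 fold change 0.58, SE 0.25, adjusted p = 0.712). Ifit1 had 45.6, 99.6 and 57.4 CPM in Chaf1a cko 3M and 47.1, 55.4 and 49.0 CPM in Ctrl 3M, with a single high library, Chaf1a cko 3M replicate 2. Its log2 fold change of 0.42 was 0.03 without that library.

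Oasl1, an inactive relative of the oligoadenylate synthetases that represses translation of Irf7, had 11.6, 18.7 and 11.1 CPM in Chaf1a cko 3M and 7.50, 11.2 and 5.11 CPM in Ctrl 3M. The groups overlapped by 1 Ctrl 3M library (log2 fold change 0.80, SE 0.41, adjusted p = 0.747). Isg15, a ubiquitin-like modifier, had 28.7, 56.0 and 31.8 CPM in Chaf1a cko 3M and 34.9, 32.7 and 19.1 CPM in Ctrl 3M. Its log2 fold change of 0.43 (SE 0.34) was 0.06 without Chaf1a cko 3M replicate 2. Parp9, which acts with the ligase Dtx3l in ADP-ribosylation, had 100.4, 119 and 104 CPM in Chaf1a cko 3M against 92.7, 93.5 and 87.9 CPM in Ctrl 3M. The gap was small (log2 fold change 0.24, SE 0.18, adjusted p = 0.818), and exons of Parp9 and Dtx3l share 458 bases on opposite strands.

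Other members had lower means in Chaf1a cko 3M. Rtp4, a zinc-finger protein that inhibits flavivirus replication, had 45.6, 54.7 and 42.2 CPM in Chaf1a cko 3M against 67.0, 56.2 and 66.8 CPM in Ctrl 3M, with no overlap (log2 fold change -0.41, SE 0.20, adjusted p = 0.731). Exons of Rtp4 share 296 bases with Gm45338 on the same strand. B2m had 1738, 1420 and 1489 CPM in Chaf1a cko 3M and 2774, 2215 and 1463 CPM in Ctrl 3M. Ctrl 3M replicate 3 lay among the Chaf1a cko 3M libraries (log2 fold change -0.47, SE 0.25, adjusted p = 0.754). Irf9 had 75.5, 111 and 101 CPM in Chaf1a cko 3M and 120, 110 and 113 CPM in Ctrl 3M, with slight overlap (log2 fold change -0.25, SE 0.20).

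The abundant members overlapped. Ifitm3 had 341, 497 and 393 CPM in Chaf1a cko 3M and 587, 423 and 365 CPM in Ctrl 3M. Oas2, at background in the other table, had 177, 320 and 280 CPM in Chaf1a cko 3M and 250, 256 and 351 CPM in Ctrl 3M. Trim25 had 168, 264 and 274 CPM in Chaf1a cko 3M and 240, 290 and 242 CPM in Ctrl 3M. For these 3 genes the lowest library was Chaf1a cko 3M replicate 1, and their log2 fold changes were -0.16, -0.14 and -0.13. Gbp3 had 206, 296 and 101 CPM in Chaf1a cko 3M and 258, 155 and 270 CPM in Ctrl 3M (log2 fold change -0.18, SE 0.40).

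Eif2ak2 was the 3M member with the largest fitted change and one of the least certain. It had 3.56, 34.8 and 30.7 CPM in Chaf1a cko 3M and 19.4, 4.03 and 1.60 CPM in Ctrl 3M. Each group held high and low libraries (log2 fold change 1.48, SE 1.17, 95% interval -1.44 to 4.39). Ifit2 and Gbp7, named here after their values were seen, were widely spread within Ctrl 3M, with coefficients of variation of 82.1% and 84.8%. Ifit2 had 109.7, 141.5 and 55.1 CPM in Chaf1a cko 3M and 6.94, 90.1 and 55.7 CPM in Ctrl 3M, and Gbp7 had 187, 176 and 108 CPM in Chaf1a cko 3M and 19.5, 233 and 125 CPM in Ctrl 3M. For both, Ctrl 3M replicate 1 was the lowest library. The spread within groups was wider in this table for the members as a whole: the median coefficient of variation of members of at least 5 CPM was 25.3% in Chaf1a cko 3M and 20.7% in Ctrl 3M. The first-set medians were 13.4% in Chaf1a cko and 13.5% in Ctrl.

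**Figure D3:**
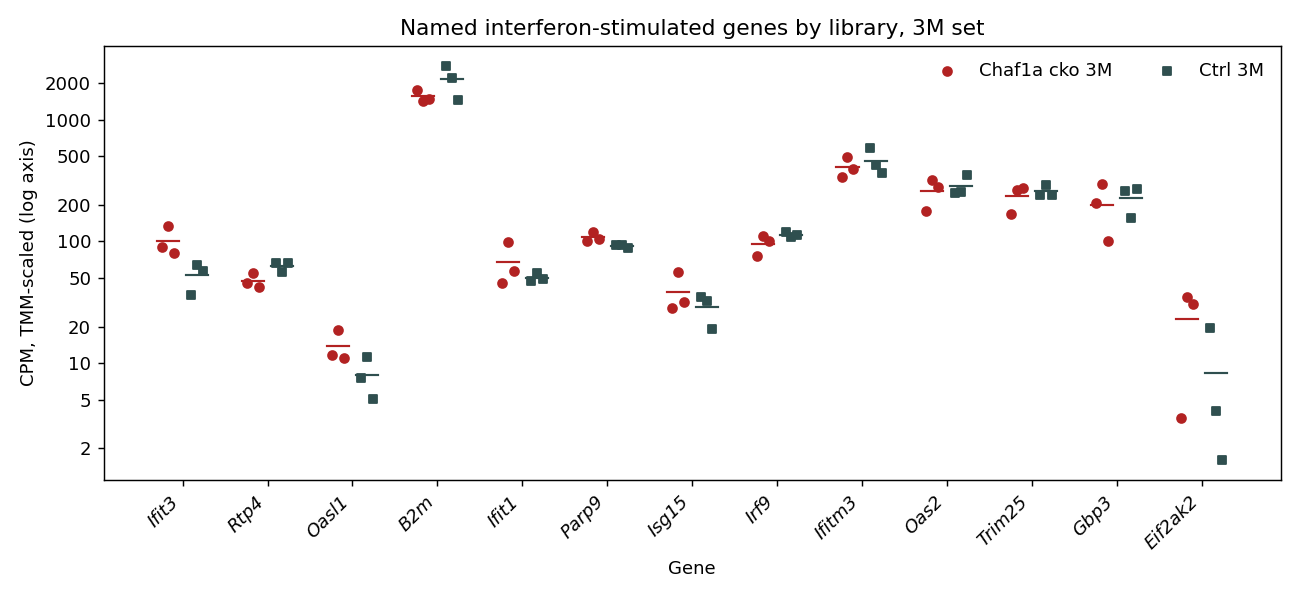
CPM on a log axis in each 3M library for the 13 named genes, with Chaf1a cko 3M (red circles) left of Ctrl 3M (dark squares) and a line at each group mean. Ifit3 and Parp9 lie apart with Chaf1a cko 3M higher and Rtp4 with Chaf1a cko 3M lower, the other genes overlap, and Eif2ak2 ranges from 1.60 to 34.8 CPM.

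A single library, Chaf1a cko 3M replicate 2, held the highest level of 21 of the 35 members of at least 5 CPM in the 3M set. The share over all genes was not counted, so this is not read as a trait of the members. The other Chaf1a cko 3M libraries held the highest level of none, and the Ctrl 3M libraries that of 7, 6 and 1. Irf7 was among these 21 members, with 88.7, 158 and 81.0 CPM in Chaf1a cko 3M and 94.6, 89.5 and 101 CPM in Ctrl 3M. So was Oasl2, with 49.6, 97.4 and 54.8 CPM in Chaf1a cko 3M and 52.9, 53.5 and 80.3 CPM in Ctrl 3M. Both genes were named after their values were seen. The summed level of the 18 effectors was 1350, 2078 and 1442 CPM in Chaf1a cko 3M and 1637, 1560 and 1495 CPM in Ctrl 3M, so that the remaining Chaf1a cko 3M libraries were below all Ctrl 3M libraries. Without Chaf1a cko 3M replicate 2 the median log2 fold change of the members was -0.19 instead of 0.04. Summed macrophage markers in Chaf1a cko 3M replicates 1 to 3 were 429, 364 and 362 CPM, dendritic cell markers 41.7, 41.1 and 38.2 CPM, and lymphocyte markers 9.65, 9.11 and 2.42 CPM, and their part in the members' levels was not tested. In the first set the highest levels were spread more evenly, with 8, 11 and 5 of 33 members highest in Chaf1a cko libraries and 3, 2 and 4 in Ctrl libraries.

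Levels of Eif2ak2, Ifit2, Gbp3, Stat2, Gbp7, Gbp2, Rsad2 and Ddx58, the genes with the smallest p-values of the first set, overlapped between the 3M groups in every case. Their 3M log2 fold changes were 1.48, 1.00, -0.18, -0.17, 0.32, 0.10, -0.23 and -0.09 in that order. Whether the effect differed between the sets was tested as the interaction of set and genotype over all 12 libraries. No member passed the threshold (smallest adjusted p = 0.526), and 0.0658% of the 22803 genes tested did. The Wald test of DESeq2 called no member either (smallest adjusted p = 0.287), against 2.04% of all genes. At an unadjusted p under 0.05 there were 3 of the 38 members, against 9.47% of all genes, so their number is near the background. Relative to the first set, the effect in the 3M set was fitted higher for Ifit3 (0.92 on the log2 scale, SE 0.38) and lower for Rsad2 (-0.52, SE 0.24). Neither passed the threshold (adjusted p = 0.526 for both), so no difference is read from them. The other of the 3, Oas2, was background in the first table and is given no direction. For Stat2 the difference was -0.48 with a 95% interval of -0.98 to 0.02.

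Members were also set side by side by whether their promoter window held the response element core. At 5 CPM or more in the first set, the 17 with a core had a median log2 fold change of 0.09, 13 of them fitted higher, and the 10 without one had 0.13, with 8 fitted higher. Those with an unadjusted p under 0.05 numbered 7 with a core and 1, Ifit2, without. The 3M medians were -0.09 with a core and 0.06 without. These are descriptions, since windows were missing for 9 members.

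Genes upstream of the members come next, from the interferons to their receptors and the sensors that induce them. The 21 interferon genes themselves all had means under 5 CPM in the first set, and their sum reached at most 48.4 CPM in a Chaf1a cko library and 46.0 CPM in a Ctrl library. In the 3M set 18 of the 21, Ifnb1 among them, had 0 counts in all 6 libraries, which allows up to 0.182 to 0.284 CPM per library (3 counts, for counting error only), and the sum of all 21 was 0 to 1.09 CPM in Chaf1a cko 3M and 0 to 0.533 CPM in Ctrl 3M. The most abundant were Ifna5 and Ifnz in the first table, with means of 3.43 and 3.34 CPM.

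Of the 14 genes of interferon receptors and signalling, 0 were called in either set. The receptor chain Ifngr2 had 90.4, 81.3 and 87.4 CPM in Chaf1a cko and 83.2, 65.2 and 70.9 CPM in Ctrl, with overlap (adjusted p = 0.361). Ifnar1, a chain of the type I receptor, had 79.6, 87.0 and 75.8 CPM in Chaf1a cko against 73.5, 72.8 and 74.2 CPM in Ctrl (log2 fold change 0.14, SE 0.08, adjusted p = 0.647). The kinase Jak1 and Stat3, the most abundant of the list, had log2 fold changes of -0.05 and 0.02 in the first set.

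None of the 24 measured genes of upstream sensing and induction was called in either set. Cgas, the sensor of cytosolic DNA, had 12.6, 7.28 and 8.48 CPM in Chaf1a cko and 15.5, 13.5 and 12.2 CPM in Ctrl, and was the only one of the list with an unadjusted p under 0.05 in the first set (log2 fold change -0.53, SE 0.23, adjusted p = 0.436). In the 3M set the smallest p-values were those of Irf5, a factor of myeloid cells, and Rnaseh2a, a subunit of the enzyme that removes ribonucleotides from DNA. Irf5 had 7.12, 5.65 and 11.2 CPM in Chaf1a cko 3M against 18.7, 16.99 and 13.4 CPM in Ctrl 3M (log2 fold change -1.03, SE 0.36, adjusted p = 0.650). Rnaseh2a had 32.1, 31.4 and 32.5 CPM in Chaf1a cko 3M against 18.01, 23.2 and 23.6 CPM in Ctrl 3M (log2 fold change 0.57, SE 0.22, adjusted p = 0.712).

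Class I antigen presentation, with 16 genes and 0 called in either set, had 11 fitted higher and 5 lower in the first set. At an unadjusted p under 0.05 there were 3 higher and 2 lower, against 5.63% and 4.5% of all genes tested. The groups did not overlap for 4 with Chaf1a cko higher and 2 with it lower, against 8.33% and 7.85% of all genes tested. H2-D1, a class I heavy chain, had 31.6, 39.8 and 32.3 CPM in Chaf1a cko against 47.8, 45.8 and 49.8 CPM in Ctrl (log2 fold change -0.47, SE 0.12, adjusted p = 0.0785). H2-T23, a nonclassical class I gene, averaged 9.52 ± 2.21 CPM in Chaf1a cko and 13.9 ± 0.103 CPM in Ctrl (SD, n = 3 each), with no overlap (log2 fold change -0.55, SE 0.22, adjusted p = 0.373). Psme2, an activator of the proteasome, was the other way, with 9.50, 7.17 and 9.42 CPM in Chaf1a cko against 6.76, 4.71 and 5.01 CPM in Ctrl (log2 fold change 0.67, SE 0.26, adjusted p = 0.353). Psmb10, named here after its values were seen, was also higher with no overlap (log2 fold change 0.47, SE 0.20, adjusted p = 0.422). H2 genes are close copies, so their reads could be split. For H2-D1 the 3M log2 fold change was -0.09 (SE 0.22).

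Among 57 other interferon-stimulated genes in the tables, 0 were called in either set, and at an unadjusted p under 0.05 there were 3 higher and 3 lower in the first set, and 2 higher and 1 lower in the 3M set. Their median log2 fold change was -0.05 in the first set, with 25 fitted higher and 32 lower, against 0.10 for the 38 genes. The smallest adjusted p of this list in the first set, 0.151, belonged to one of the 3 higher genes, which are not named here. Those lower at an unadjusted p were Slfn5, Gbp4 and Herc6, an Isg15 ligase. Herc6 had 10.5, 10.4 and 9.87 CPM in Chaf1a cko against 14.6, 13.1 and 16.0 CPM in Ctrl (log2 fold change -0.51, SE 0.19, adjusted p = 0.344). Slfn5, of the Schlafen family, had 181, 179 and 174 CPM in Chaf1a cko against 199, 200 and 198 CPM in Ctrl (log2 fold change -0.16, SE 0.05, adjusted p = 0.259). Ube2l6, the enzyme that carries Isg15 to its ligases, had 50.8, 59.4 and 44.9 CPM in Chaf1a cko 3M against 35.4, 36.7 and 32.9 CPM in Ctrl 3M (log2 fold change 0.56, SE 0.21, adjusted p = 0.682).

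Markers of other cell types were summed in each library, and their part in the members' values was not tested. The first-set sums of fibroblast and cardiomyocyte markers did not overlap between the groups, and those of the other 5 lists did. The dendritic cell sums overlapped by a narrow margin, and only through Ctrl replicate 3. In bulk RNA, fewer cells of a type and less RNA per cell cannot be told apart. The labelled cell type had its markers, 9 cardiomyocyte genes led by Myh6. They summed to 91077 to 91687 CPM in Chaf1a cko and 96501 to 99789 CPM in Ctrl. Against the direction of the sum, 5 of the 9 had a higher mean in Chaf1a cko. At the threshold 1 of them was called higher and 4 lower. Fibroblast markers summed to 2977 to 3002 CPM in Chaf1a cko and 3575 to 3683 CPM in Ctrl, with a higher mean in Chaf1a cko for 1 of 9. Of these 9, 5 were called lower and 0 higher. Macrophage markers summed to 122 to 139 CPM in Chaf1a cko and 131.1 to 147 CPM in Ctrl, higher for 4 of 13, and endothelial markers to 3327 to 3394 CPM in Chaf1a cko and 3298 to 3558 CPM in Ctrl, higher for 4 of 10. Dendritic cell markers summed to 91.8 to 98.9 CPM in Chaf1a cko and 69.3 to 91.8 CPM in Ctrl, higher for 4 of 6, lymphocyte markers to 28.5 to 30.1 CPM in Chaf1a cko and 27.4 to 36.7 CPM in Ctrl, higher for 2 of 11, and mural cell markers to 618 to 647 CPM in Chaf1a cko and 597 to 636 CPM in Ctrl, higher for 4 of 6. Of these other 5 lists, 1 mural cell marker was called lower and no other marker was called. No marker of the lists was at 0 in all first-set libraries.

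Cardiomyocyte, macrophage and dendritic cell sums did not overlap between the 3M groups, and the other 4 did. In the 3M set cardiomyocyte markers summed to 46438 to 51362 CPM in Chaf1a cko 3M and 32588 to 39877 CPM in Ctrl 3M, higher for 6 of 9, and macrophage markers to 362 to 429 CPM in Chaf1a cko 3M and 528 to 616 CPM in Ctrl 3M, higher for 4 of 13. The groups did not overlap for 5 of the 13 with Chaf1a cko 3M lower and for 0 with it higher, against 6.89% and 7.21% of all genes tested. The complement genes C1qa, C1qb and C1qc, made by macrophages, were among the 5, and none of the 13 markers passed the threshold. A link of these sums to the members, of which 20 were fitted higher and 18 lower in this set, was not tested. Endothelial markers summed to 8954 to 9831 CPM in Chaf1a cko 3M and 8582 to 12205 CPM in Ctrl 3M (higher for 1 of 10), and fibroblast markers to 1128 to 1491 CPM in Chaf1a cko 3M and 1245 to 2355 CPM in Ctrl 3M (higher for 2 of 9). Dendritic cell markers summed to 38.2 to 41.7 CPM in Chaf1a cko 3M and 46.8 to 52.6 CPM in Ctrl 3M (higher for 1 of 6, Siglech at 0 in all libraries), lymphocyte markers to 2.42 to 9.65 CPM in Chaf1a cko 3M and 4.91 to 16.9 CPM in Ctrl 3M (higher for 5 of 11, Nkg7 at 0), and mural cell markers to 897 to 947 CPM in Chaf1a cko 3M and 787 to 1000 CPM in Ctrl 3M (higher for 3 of 6).

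**Figure D4:**
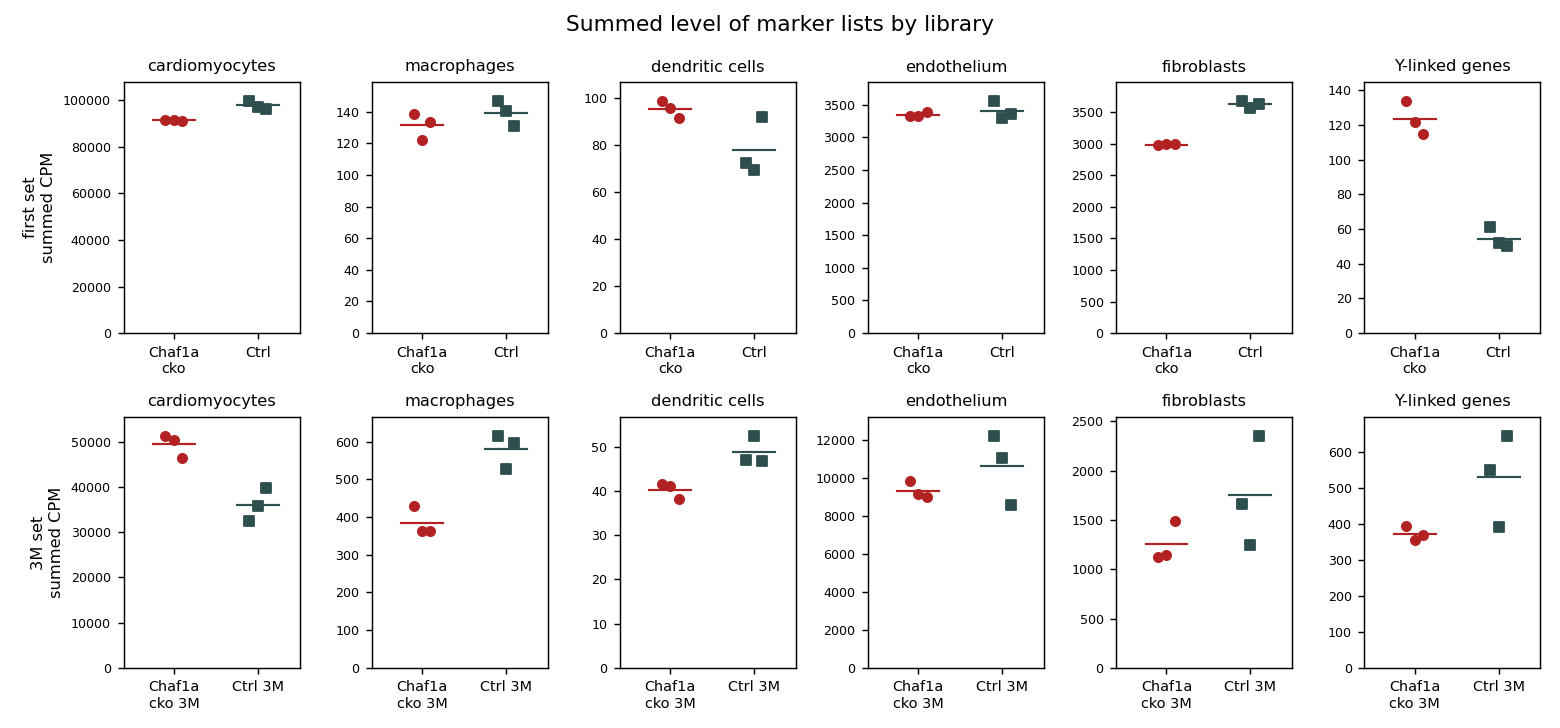
Summed CPM of marker lists in each library, with the first set above and the 3M set below, Chaf1a cko (red circles) left of Ctrl (dark squares), a line at each group mean and every axis starting at 0. Fibroblast markers are lower and Y-linked genes higher in all Chaf1a cko libraries of the first set, and macrophage markers are lower and cardiomyocyte markers higher in all Chaf1a cko 3M libraries.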

How the data were processed

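RNA of 12 libraries was sequenced after ribosomal RNA depletion with a stranded kit, per the labels' protocols. The authors deposited gene counts, whole numbers with no normalization, in 2 tables of 6 libraries. Per the submitters' processing notes, FastQC, Trimmomatic and HISAT2 were used, with the mm10 build; which program counted the reads, with which annotation and strand setting, is not given here. Genes that overlap on opposite strands then cannot be told apart (11 members share exon bases with a gene on the other strand and 4 with one on the same strand), and reads of near-identical copies (Ifit3 and Ifit3b, Oas1a and Oas1g, the Gbp and H2 families) could be split or dropped.

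Groups follow the titles. Fits of each set by itself used edgeR 4.0.16 (R 4.3.3): filterByExpr (minimum count 10, minimum total 15), TMM scaling, robust glmQLFit and two-sided glmQLFTest, with Benjamini-Hochberg adjustment over all genes tested and a threshold of 0.05. Intervals hold counting error at the stated depth and the spread between libraries. The members and lists were chosen with earlier results of these data known, and the lists of other genes were written for this work. Named genes were, in each set, the 8 members with the smallest p, the 5 with the highest mean CPM and the one with the largest fold change at 5 CPM or more, and from each list up to 4 by smallest p or the 2 most abundant. Others are said to be chosen after their values were seen, as were Ifnar1, Oasl2, Irf7, Gbp5, Gbp6, Gbp8 and Gbp9. A gene of the receptor and signalling list is not reported here. Promoters were ordered by p in the first set, because both sets had 0 called members. The listed symbols Tmem173, Mnda and Trbc2 were not found, and no columns were left out. Positions and promoters are from RefSeq (GRCm38.p6, on which mm10 is based), and exon lengths from GENCODE M21. Libraries of a group differed by more than sampling noise, so none was taken as a duplicate. The code was tested on simulated data.

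The results were recomputed with a replicate block, without each library in turn, with a filter of 5 CPM in 3 libraries or none beyond a total above 0, with library size as the scaling, with the size factors of DESeq2 1.42.0, and with its Wald test. Counts at an unadjusted p under 0.05 were added after the data were seen.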

Additional observations from a re-analysis of the deposited data

How the results depend on the processing

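At this depth and spread no member passed the threshold in either set or in their difference under any alternative, except Eif2ak2 and Ifit2, the 2 members called in the first set by the Wald test of DESeq2. Of the named members, 9 of 12 in the first set and 9 of 13 in the 3M set kept their direction in all 12 alternatives. Numbers of all genes called were 270 in the first set, against 479 in the Wald test and 128 to 201 without 1 library. In the 3M set they were 2, against 72 in the Wald test, 6 with no filter beyond a total above 0, 0 with a replicate block, and 0 to 5 without 1 library. For the difference between the sets they were 15, against 7 with library size alone, 454 in the Wald test, 6 with no filter beyond a total above 0, 8 with the filter of 5 CPM in 3 libraries, 0 with the replicate block, and 1 (without Ctrl replicate 1, for one) to 110 (without Ctrl 3M replicate 2). The cause of these shifts was not tested.

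Members at an unadjusted p under 0.05 numbered 6 to 9 in the first set and 1 to 2 in the 3M set without 1 library. For the difference they numbered 3, against 1 with DESeq2 size factors, 5 with the replicate block and 0 to 4 without 1 library. The median log2 fold change of the members in the 3M set ran from -0.19 (without Chaf1a cko 3M replicate 2) to 0.16. Direction turned, without 1 library, for Trim25 (-0.0091 to 0.10), Parp14 (-0.0076 to 0.13), B2m (-0.14 to 0.083) and Chaf1a (-0.13 to 0.27) in the first set, and for Ifitm3 (-0.32 to 0.058), Oas2 (-0.32 to 0.073), Trim25 (-0.25 to 0.066), Gbp3 (-0.57 to 0.14) and Chaf1a (-0.16 to 0.96) in the 3M set. Libraries of the same replicate number did not deviate together: correlations of their deviations were -0.0136, 0.0239 and 0.0340 in the first set and -0.000375, 0.0201 and 0.0101 in the 3M set. With the replicate block 192 genes and 0 members were called in the first set. Where 1 library was left out, the remaining libraries of that group were assumed to vary like the rest. The 3M spread limits what could be seen there.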
